A study of Mus musculus with 16 samples.

Results

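The genes of the MHC class II antigen presentation pathway were followed in mouse lung across a genotype by challenge design. The members are the 10 genes H2-Aa, H2-Ab1, H2-Eb1, Cd74, Ctss, H2-DMa, H2-DMb1, H2-Oa, H2-Ob and Ciita, chosen by name and read from every probe annotated to them. They are covered by 14 of the 25697 probes on the array (4 for H2-Ab1, 2 for Cd74 and 1 for each other gene). After 1 probe per gene was kept, they were 10 of the 11962 features tested. Their Entrez gene IDs in the array's annotation are 14960 for H2-Aa, 14961 for H2-Ab1, 14969 for H2-Eb1, 16149 for Cd74, 13040 for Ctss, 14998 for H2-DMa, 14999 for H2-DMb1, 15001 for H2-Oa, 15002 for H2-Ob and 12265 for Ciita.

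RNA came from lung tissue of 16 female C57BL/6N mice aged 17 weeks, with 4 mice per group and 1 Illumina BeadChip array per mouse. The groups were challenged mice of a Cox4-2 mutant line, untreated mice of that line, challenged wild-type mice and untreated wild-type mice. Cox4-2, named Cox4i2 on the array, is an isoform of a cytochrome c oxidase subunit, and the series title calls the line a knockout. Challenged mice were injected intraperitoneally with 10 µg of ovalbumin (OVA) in 2 mg of alum and then breathed an aerosol of 1% OVA 3 times for 30 min, a standard model of allergic airway inflammation. The treatment of the other mice is labelled as none. The labels do not describe the allele further, and they do not give the time between the last aerosol and the collection of the lung.

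MHC class II molecules carry peptides from endocytosed proteins such as OVA to the cell surface, where CD4 T cells read them. The α and β chains assemble with the invariant chain, encoded by Cd74, which blocks the peptide groove and steers the complex to endosomes. There cathepsin S trims the invariant chain to a short fragment, H2-DM exchanges that fragment for antigenic peptide, and H2-DO holds H2-DM back, mainly in B cells. CIITA, a coactivator that does not bind DNA itself, switches on genes of this pathway through the RFX, CREB and NF-Y proteins assembled on their promoters. Dendritic cells, B cells and macrophages are the main class II cells of the lung, and alveolar type 2 cells carry class II as well.

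Promoters of class II genes are shown because Ciita rose after challenge in wild-type mice, and CIITA acts through promoters of this kind. Whether it acts on each of those shown was not tested. RefSeq (GRCm38.p6) promoters were at hand for 7 of the 10 members. H2-Ab1, Cd74 and Ciita had no entry. The 5 below cover positions -150 to -31 from the transcription start, 5′ to 3′ on the strand of the gene. Capitals mark TGATTGG (the Y box, bound by NF-Y), AACNGATG or GACNGATG (letters found in X boxes, bound by RFX), and TGACGTCA (a CREB site). A capital stretch is a match of letters only, and binding was not tested.
H2-Aa, chr17:34287854-34287973, minus strand: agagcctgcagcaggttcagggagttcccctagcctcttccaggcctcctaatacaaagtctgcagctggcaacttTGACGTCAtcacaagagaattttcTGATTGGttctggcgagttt
H2-Eb1, chr17:34305717-34305836, plus strand: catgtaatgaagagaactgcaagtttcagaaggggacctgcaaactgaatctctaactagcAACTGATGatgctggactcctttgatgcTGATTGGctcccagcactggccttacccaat
H2-DMb1, chr17:34153041-34153160, plus strand: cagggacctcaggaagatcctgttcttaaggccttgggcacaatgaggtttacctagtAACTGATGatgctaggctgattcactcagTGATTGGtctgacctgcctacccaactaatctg
H2-Oa, chr17:34092229-34092348, plus strand: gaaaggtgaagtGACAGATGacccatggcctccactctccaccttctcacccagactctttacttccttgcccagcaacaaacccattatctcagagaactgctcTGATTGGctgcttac
H2-Ob, chr17:34238755-34238874, plus strand: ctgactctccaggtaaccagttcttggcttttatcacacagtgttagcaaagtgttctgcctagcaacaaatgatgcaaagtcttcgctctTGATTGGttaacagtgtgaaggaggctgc

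The 5 promoters shown are those of the 7 at hand that held TGATTGG, so its presence in all 5 is fixed by the choice and is no result. On the coding strand its first base stood at -50 in H2-Aa, -61 in H2-Eb1, -63 in H2-DMb1, -45 in H2-Oa and -59 in H2-Ob. Of the other members with an entry, Ctss held only AACNGATG, at -207 and outside the range shown, and H2-DMa held none of the searched words. Over all 32851 promoters of 300 bases (250 before the start and 50 after it), 7.82% held TGATTGG on either strand. The shares for the other words, also on either strand, were 2.32% for AACNGATG, 2.41% for GACNGATG and 1.79% for TGACGTCA, and none of the words overlaps another in the 5 sequences. In H2-Eb1 and H2-DMb1 the AACNGATG word began 28 and 29 bases before TGATTGG, and in H2-Oa the GACNGATG word began 93 bases before it. At that distance the H2-Oa word is not taken as an X box. H2-Aa and H2-Ob held neither word, and X boxes spelled otherwise are not marked in any of the sequences. TGACGTCA stood at -74 in H2-Aa. A word of either kind followed by TGATTGG at 25 to 35 bases was present in 5 of the 32851 promoters (0.0152%), those of H2-Eb1, H2-Eb2, H2-DMb1, H2-DMb2 and BC051142, all on chromosome 17. H2-Eb1 and H2-Eb2 are copies of each other, as are H2-DMb1 and H2-DMb2, and the words and spacing were chosen with the sequences in view, so this is a description.

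All 14 probes lay above the background limit on all 16 arrays, so every member gave a signal in every lung. Values are deposited intensities, linear and in arbitrary units, and tests were run on a log2 scale with 1 fit of all 16 arrays. Adjusted p-values are Benjamini-Hochberg values over all 11962 features from limma, and 0.05 is the threshold for saying that a gene rose or fell. Probes differ in how brightly they bind, so levels are compared between groups within a gene and not between genes. In whole lung RNA, fewer cells of a type and less RNA per cell cannot be told apart.

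The Cox4i2 probe read 106, 124, 104 and 243 on the challenged mutant arrays and 102, 77.5, 181 and 189 on the untreated mutant arrays, against 223, 281, 182 and 305 in challenged and 247, 252, 260.2 and 372 in untreated wild-type lungs; mutants were lower in both pairs of groups, without passing the test (adjusted p = 0.27 challenged and 0.19 untreated). Challenged mutant replicate 2 and challenged wild-type replicates 1 and 3 stood apart by RNA of other tissues, with scores of 3.38 to 4.81 for a list of 9 skeletal muscle genes, where the other 13 arrays scored -0.21 to 0.47. A score is the mean log2 value of a list on an array minus that of untreated wild-type lungs. For 7 squamous epithelium genes it was 0.21 to 3.23 in challenged and -0.05 to 0.08 in untreated mutants. In wild-type lungs it was 0.31 to 3.89 after challenge and -0.03 to 0.06 without it. Without the 3 arrays, 3 of 5 fat cell genes fell in wild-type mice and none in mutants, against 9.39% and 9.49% of all features. Leaving out the 3 arrays therefore does not remove every difference in genes of other tissues. Surfactant and other alveolar type 2 genes, the defining genes of lung tissue, were read as summed intensities over 10 genes. The sums were 158077 to 164238 in challenged and 144092 to 152737 in untreated mutants. In wild-type lungs they were 143107 to 163108 after challenge and 148101 to 156229 without it.

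The share of class II genes that rose after challenge was near that of all features. In mutants 1 of the 10 members passed the threshold, H2-DMb1, against 23.8% of all features tested (12.1% higher, 11.7% lower). In wild-type mice 1 of 10 passed, Ciita, against 17.6% of all features (8.19% higher, 9.43% lower). The median difference of the 10 members was 0.18 log2 units in mutants and 0.12 in wild-type mice, where the medians of all features were 0.01 and -0.01. At an unadjusted p under 0.05 there were 5 members in mutants and 1 in wild-type mice, against 37.6% and 32.4% of all features. Without the 3 arrays that carried other tissue, the counts were 1 in mutants (H2-DMb1), against 21.1% of all features (11.6% higher, 9.49% lower), and 2 in wild-type mice (H2-DMb1 and Ciita), against 20% (10.6% higher, 9.39% lower).

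**Figure D1:**
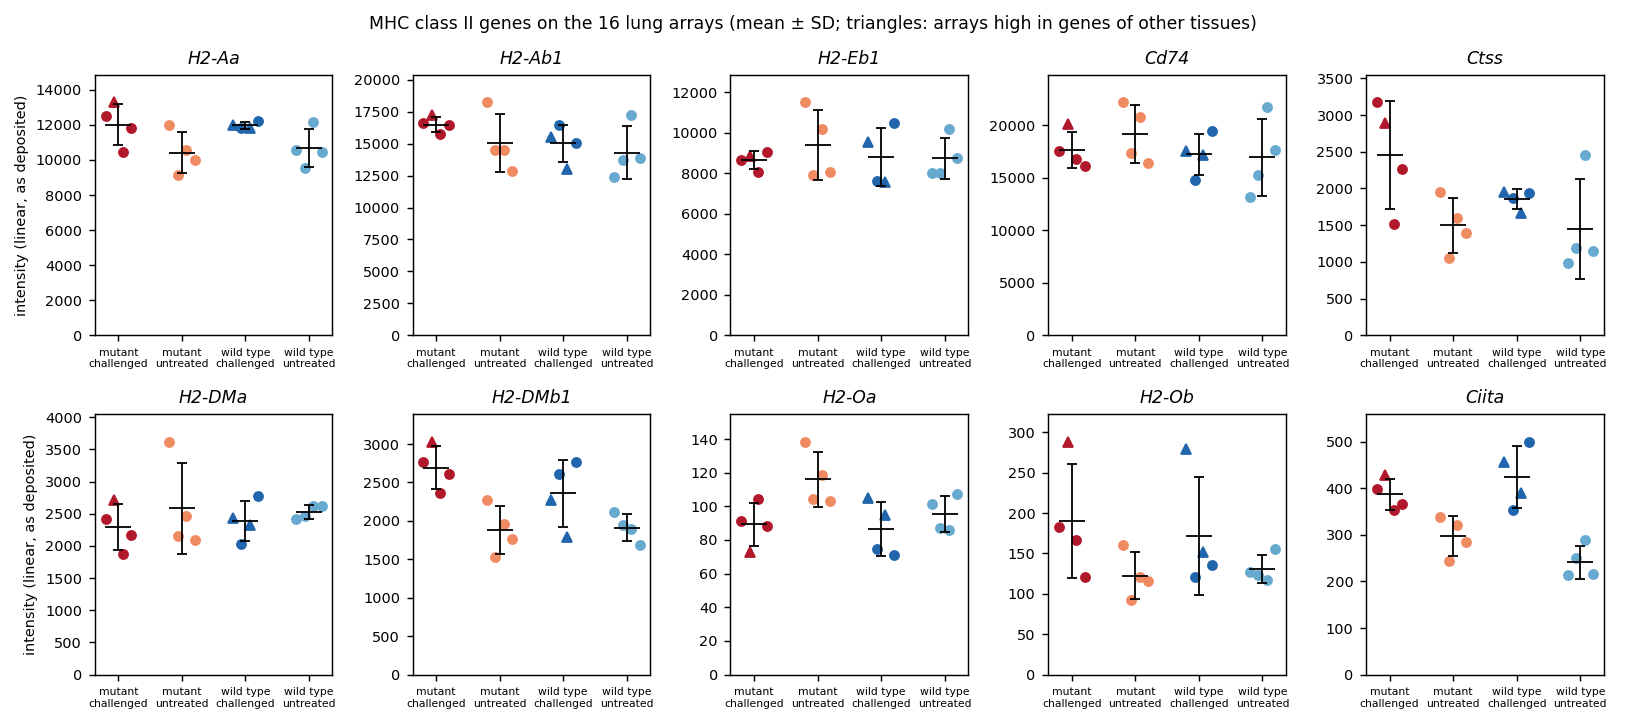
Intensity (linear, arbitrary units) of the tested probe of each member on the 16 lung arrays, in 4 groups of 4 mice; points are arrays, black marks are group means with SD bars, and triangles are the 3 arrays high in genes of other tissues. The 2 challenged groups of Ciita lie above both untreated groups, while the H2-Eb1 and Cd74 groups overlap throughout.

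Ciita, the master regulator of the pathway, had intensities of 457, 353, 389 and 500.2 in challenged wild-type lungs, against 213, 250.5, 288 and 215 in untreated wild-type lungs. Every challenged wild-type array was above every untreated one. The group means were 425 ± 66.2 and 242 ± 35.4 (SD, n = 4 each), and the log2 difference was 0.72 (SE 0.12), 1.64-fold, with an adjusted p of 0.00116. In mutants Ciita read 399.7, 428, 353 and 367 after challenge, against 339, 243, 322 and 285 without it. These groups did not overlap either, but the difference of 0.34 (SE 0.12), 1.27-fold, stopped just short of the threshold (adjusted p = 0.0502). Groups that did not overlap were found for 29.6% of all features in mutants and 17.9% in wild-type mice; among the members they were H2-DMb1 and Ciita in mutants and Ciita in wild-type mice.

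The Ciita response was not shown to differ between genotypes. Its interaction, the challenge difference in mutants minus that in wild-type mice, was -0.37 log2 units (SE 0.17, 95% interval -0.74 to -0.01). The unadjusted p was 0.0457 and the adjusted p 0.41. No member passed the interaction test, and 0% of all features did. Without the 3 arrays with other tissue no member passed either, against 0.284% of all features. Untreated mutants had 297 ± 42.6 against 242 ± 35.4 in untreated wild-type lungs (SD, n = 4 each), a difference of 0.26 (SE 0.12, adjusted p = 0.41). After challenge mutants had 387 ± 33.9 and wild-type mice 425 ± 66.2 (SD, n = 4 each), a difference of -0.11 (SE 0.12, adjusted p = 0.75). In the order of group means, the 2 challenged groups of Ciita overlapped each other, the 2 untreated groups overlapped each other, and only the step between challenged mutants and untreated mutants was free of overlap.

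H2-DMb1 encodes the β chain of H2-DM, the peptide exchanger. Its intensities were 2761, 3030.1, 2358 and 2613 in challenged mutants, against 2269, 1535, 1964 and 1767 in untreated mutants. The lowest challenged array was above the highest untreated one. The means were 2691 ± 281 and 1884 ± 311 (SD, n = 4 each), a rise of 0.51 log2 units (SE 0.14), 1.43-fold, with an adjusted p of 0.0143. Without untreated mutant replicate 2, the lowest of the 16 arrays, the rise was no longer past the threshold (adjusted p = 0.0505). In wild-type mice the values were 2269, 2613, 1786 and 2761 after challenge, against 2122, 1942, 1893 and 1689.6 without it. Those groups overlapped through challenged replicate 3, one of the arrays with other tissue, and the difference was 0.28 (SE 0.14, adjusted p = 0.17). It was 0.49 (SE 0.14) with an adjusted p of 0.0273 when the 3 arrays with other tissue were left out. The interaction for H2-DMb1 was 0.23 (SE 0.20, adjusted p = 0.67), and -0.03 without the 3 arrays. H2-DMb1 and H2-DMb2 are close copies, and whether RNA of H2-DMb2 also binds this probe was not tested.

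H2-DMa, the partner chain of H2-DMb1 in H2-DM, did not pass in either genotype. It averaged 2294 ± 353 in challenged and 2586 ± 708 in untreated mutants, and 2392 ± 310.1 in challenged and 2528 ± 103 in untreated wild-type mice (SD, n = 4 each). The log2 differences were -0.15 (95% interval -0.47 to 0.17) and -0.09 (-0.41 to 0.24). Untreated mutant replicate 1 held the highest value of the 16 arrays, 3619.

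None of the chains that form the surface molecule passed in either genotype. H2-Aa, the α chain of I-A, read 12505, 13281, 10474 and 11828 in challenged mutants, against 11967, 9125, 10567 and 10025 in untreated mutants. In wild-type mice it read 11967, 11828, 11828 and 12247 after challenge, against 10567, 9527, 12171 and 10436 without it. The challenged groups overlapped the untreated ones in both genotypes. Untreated wild-type replicate 3 lay within the challenged wild-type range, and challenged mutant replicate 3 was below untreated mutant replicates 1 and 3. The differences were 0.21 (SE 0.10, adjusted p = 0.15) in mutants and 0.17 (SE 0.10, adjusted p = 0.26) in wild-type mice.

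H2-Ab1, the β chain of I-A, averaged 16499.8 ± 605 in challenged and 15019.9 ± 2273 in untreated mutants, and 15019 ± 1459 in challenged and 14309 ± 2045 in untreated wild-type mice (SD, n = 4 each). The differences were 0.15 (adjusted p = 0.38) and 0.07 (adjusted p = 0.70). Its 4 probes gave differences of -0.10 to 0.28 in mutants and 0.06 to 0.14 in wild-type mice when every probe was fitted by itself, so they did not share a direction in mutants, and none of the 4 passed. H2-Eb1, the β chain of I-E, averaged 8654 ± 426 in challenged and 9409 ± 1739 in untreated mutants, and 8804 ± 1435 in challenged and 8733 ± 1028 in untreated wild-type mice (SD, n = 4 each). Its differences were -0.10 (95% interval -0.39 to 0.18) and 0.00 (-0.28 to 0.29). H2-Ea encodes the α partner of H2-Eb1, and mice of the H2-b haplotype such as C57BL/6 do not make it. Its probe was below the background limit of 16.8 on all 16 arrays, with a highest intensity of 13.6.

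Cd74 encodes the invariant chain. It read 17519, 20119, 16798 and 16137 in challenged mutants, against 22189, 17358, 20790.2 and 16447 in untreated mutants. In wild-type mice it read 17519, 14757, 17213 and 19513 after challenge, against 13142, 15239.5, 21780.0 and 17627 without it. All 4 groups overlapped, and the lowest and one of the highest arrays both belonged to untreated wild-type mice. The differences were -0.12 (95% interval -0.42 to 0.19) in mutants and 0.04 (-0.26 to 0.35) in wild-type mice. The other Cd74 probe gave 0.05 and 0.15, and neither probe passed. H2-Aa, H2-Ab1, H2-Eb1 and Cd74 were among the brightest probes of every array, with only 24 to 155 probes above them. Several arrays share 1 value, as quantile normalisation gives by setting values by rank over the whole range. The normalisation is not described in the sources used here.

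Ctss, the protease that trims the invariant chain, had the largest fitted difference of the members in mutants, without passing the test. It read 3172, 2887, 1517 and 2263 in challenged mutants, against 1945, 1049, 1603 and 1392 in untreated mutants. It read 1949, 1864, 1659.8 and 1941 in challenged wild-type lungs, against 987, 1191, 2456 and 1147 in untreated ones. Untreated wild-type replicate 3 was above all 4 challenged wild-type arrays, and challenged mutant replicate 3 lay within the untreated range. The difference was 0.68 (SE 0.26, adjusted p = 0.0626) in mutants and 0.44 (SE 0.26, adjusted p = 0.25) in wild-type mice. Without untreated wild-type replicate 3 the wild-type difference was 0.72 (adjusted p = 0.0301). Without challenged mutant replicate 3 the mutant difference was 0.89 (adjusted p = 0.0187), and it also passed without untreated mutant replicate 1 or untreated wild-type replicate 3.

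H2-Oa and H2-Ob, the chains of H2-DO, had fitted differences of opposite sign and did not pass the test. H2-Oa read 91.3, 73, 104 and 88.4 in challenged mutants, against 138, 104, 119 and 103 in untreated mutants, a difference of -0.27 (SE 0.11, adjusted p = 0.0817). In wild-type mice H2-Oa read 105, 74.9, 95 and 71 after challenge, against 102, 87, 85.7 and 107 without it, a difference of -0.10 (SE 0.11, adjusted p = 0.54). In both genotypes the challenged arrays overlapped the untreated ones.

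H2-Ob read 183, 288, 166 and 121 in challenged mutants, against 161, 91.9, 121 and 116 in untreated mutants. It read 279, 120.3, 152 and 136 in challenged wild-type lungs, against 127, 123, 117 and 155 in untreated ones. One challenged array of each genotype was far above the rest, mutant replicate 2 and wild-type replicate 1. Both are arrays with RNA of other tissue, and they had the highest B cell scores, 0.98 and 1.13 over 10 measured B cell genes. The B cell score was 0.30 to 0.98 in challenged and -0.30 to -0.06 in untreated mutants, and 0.37 to 1.13 in challenged and -0.07 to 0.11 in untreated wild-type lungs. The summed intensity of these genes was 1222 to 2504 and 611 to 865 in mutants, and 1404 to 2956 and 824 to 1045 in wild-type mice, while the B cell markers Cr2 and Pax5 were below background on all 16 arrays. The H2-Ob difference was 0.47 (SE 0.21, adjusted p = 0.12) in mutants and 0.26 (SE 0.21, adjusted p = 0.42) in wild-type mice. With the 3 arrays left out it was 0.28 (adjusted p = 0.18) and -0.02 (adjusted p = 0.96). The part of B cells in the H2-Ob values was not tested.

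**Figure D2:**
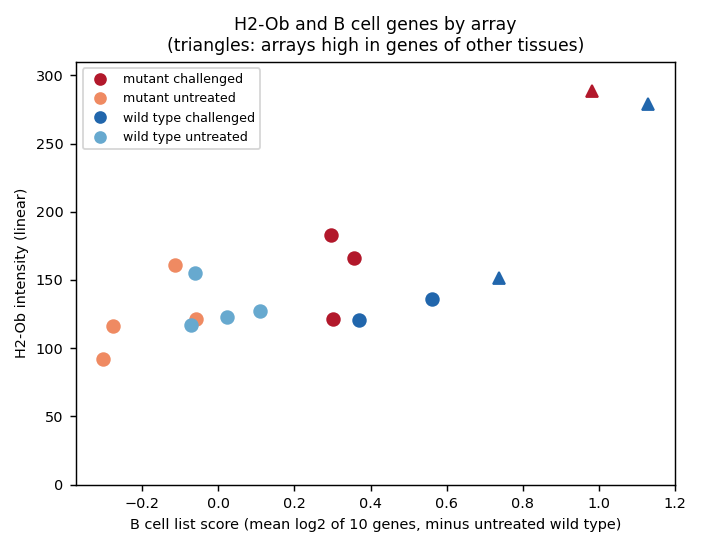
H2-Ob intensity (linear) against the B cell score of the same array (mean log2 of 10 genes minus untreated wild type); each point is 1 of 16 arrays, coloured by group, and triangles are the 3 arrays high in genes of other tissues. The 2 arrays with scores of 0.98 and 1.13 hold the H2-Ob values of 288 and 279, and the other 14 arrays lie between 91.9 and 183.

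The challenge difference was also averaged over the 2 genotypes, a contrast chosen after the data were seen. In it 4 of 10 members rose and none fell, against 18.1% of all features higher and 18.7% lower (36.7% in either direction). The members' share was close to that of the whole array only when both directions are pooled. Whether the 10 members differ from the array as a set was not tested. They were Ciita at 0.53 (SE 0.09, adjusted p = 0.000242), H2-DMb1 at 0.40 (SE 0.10, adjusted p = 0.0049), Ctss at 0.56 (SE 0.18, adjusted p = 0.023) and H2-Aa at 0.19 (SE 0.07, adjusted p = 0.0487). H2-Aa lay just under the threshold and kept it in only 7 of 25 alternatives and in 3 of the 16 that left out 1 array, with an adjusted p of 0.0231 to 0.14. H2-Oa (-0.19) and H2-Ob (0.36) stopped at an adjusted p of 0.0676 and 0.0675. Cd74 (-0.04), H2-Eb1 (-0.05), H2-DMa (-0.12) and H2-Ab1 (0.11) did not pass. Without the 3 arrays with other tissue the genes past the threshold were Ciita, H2-DMb1 and H2-Oa, at 0.51, 0.47 and -0.23, against 36.6% of all features, and Ctss was at 0.53 (adjusted p = 0.0714).

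**Figure D3:**
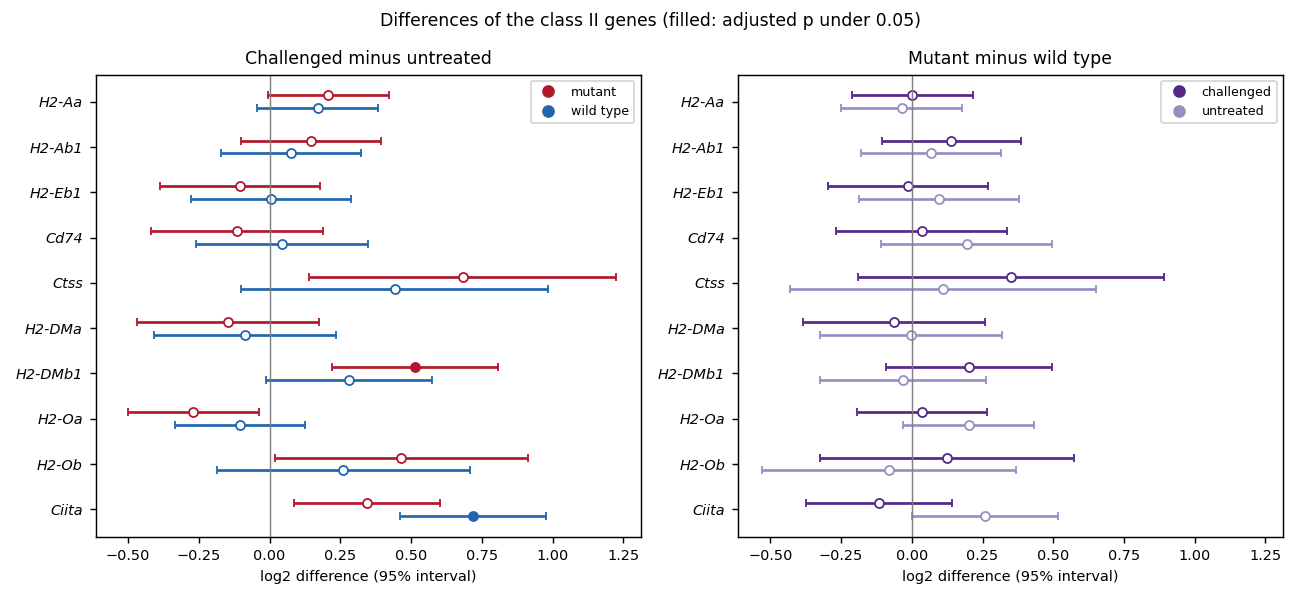
Log2 differences of the 10 members with 95% intervals, challenged minus untreated on the left (mutant and wild type) and mutant minus wild type on the right (challenged and untreated); filled points have an adjusted p under 0.05. The filled points are H2-DMb1 in mutants (0.51) and Ciita in wild-type mice (0.72), and no genotype difference is filled.

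No member was shown to differ between the genotypes. None of the 10 passed between mutant and wild-type mice after challenge, against 0.0167% of all features, and none passed in untreated mice, against 0%. At an unadjusted p under 0.05 there was no member after challenge and 1 in untreated mice (Ciita), against 12.2% of all features in each comparison. The median differences were 0.04 after challenge and 0.08 without it, against 0.02 and 0.00 over all features. The largest difference after challenge was that of Ctss, which averaged 2459.7 ± 734 in mutants and 1853 ± 135 in wild-type mice (SD, n = 4 each), a log2 difference of 0.35 with a 95% interval of -0.19 to 0.89. In untreated mice Cd74 averaged 19196 ± 2735 in mutants and 16947 ± 3706 in wild-type mice (SD, n = 4 each), a difference of 0.19 (-0.11 to 0.50). The other Cd74 probe gave 0.03 there. Ciita (0.26) and H2-Oa (0.20) had larger fitted differences in untreated mice. The comparison of challenged mice uses the arrays with other tissue, and no member passed when they were left out, against 0.719% of all features.

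Class II levels varied from mouse to mouse within each group. The mean log2 value of H2-Aa, H2-Ab1, H2-Eb1 and Cd74, set against untreated wild-type mice, ran from 0.01 to 0.22 in challenged mutants, -0.09 to 0.34 in untreated mutants, -0.03 to 0.20 in challenged and -0.17 to 0.27 in untreated wild-type mice. The 2 highest arrays were both untreated, mutant replicate 1 (0.34) and wild-type replicate 3 (0.27). Wild-type replicate 3 also had the highest macrophage and monocyte score of the 16 arrays, 0.67 over 8 genes, where the other untreated wild-type arrays scored -0.37 to -0.09. That list ran from -0.20 to 0.46 in challenged mutants and from 0.13 to 0.24 in challenged wild-type lungs. In untreated mutants it ran from -0.50 to 0.21, so mutant replicate 1, the highest in class II, scored no more than 0.21. The dendritic cell score, over 12 genes, was 0.17 to 0.25 in challenged and 0.04 to 0.26 in untreated mutants, and 0.18 to 0.37 in challenged and -0.18 to 0.19 in untreated wild-type lungs. The part of these cells in the class II values was not tested.

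Some markers of class II cells and of T cells passed the threshold after challenge as well. With all arrays fitted, the B cell and T cell lists held genes that rose and none that fell in both genotypes. Every other list held genes that fell in at least 1 genotype. In wild-type mice few macrophage and monocyte genes or alveolar type 2 genes passed, in either direction. Whether any list differed from all features as a set was not tested. Of 10 measured B cell genes, 5 rose and none fell in each genotype. Of 12 dendritic cell genes, 5 rose and 1 fell in mutants and 3 rose and 1 fell in wild-type mice, and of 8 macrophage and monocyte genes 3 rose and 1 fell in mutants and 1 rose and 1 fell in wild-type mice. Of 8 T cell genes, 4 rose in mutants and 3 in wild-type mice, and none fell. The T cell score was 0.23 to 0.34 in challenged and -0.26 to -0.04 in untreated mutants, and 0.08 to 0.37 in challenged and -0.18 to 0.21 in untreated wild-type lungs. Of 5 alveolar macrophage genes, 1 fell in mutants and 2 in wild-type mice, and none rose. That score was -0.48 to 0.01 in challenged and -0.21 to 0.12 in untreated mutants, and -0.90 to -0.07 in challenged and -0.26 to 0.24 in untreated wild-type lungs. Of 10 alveolar type 2 genes, 4 rose and none fell in mutants, and 1 rose and 2 fell in wild-type mice. These counts stand beside 12.1% higher and 11.7% lower over all features in mutants and 8.19% and 9.43% in wild-type mice. Without the 3 arrays with other tissue, 5 B cell genes rose in mutants and 3 in wild-type mice, and 4 T cell genes rose in mutants while 2 rose and 1 fell in wild-type mice. On the same arrays 2 dendritic cell genes rose and 2 fell in mutants, against 5 and 1 in wild-type mice. Macrophage and monocyte genes numbered 2 higher and 1 lower in mutants, and 1 higher and 1 lower in wild-type mice. Among alveolar macrophage genes 1 fell in mutants and 3 in wild-type mice, and none rose. Alveolar type 2 genes there numbered 4 higher and none lower in mutants, and 2 higher and 2 lower in wild-type mice. Over all features 11.6% were higher and 9.49% lower there in mutants, and 10.6% and 9.39% in wild-type mice. The part of these cells in the differences of the pathway genes was not tested.

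**Figure D4:**
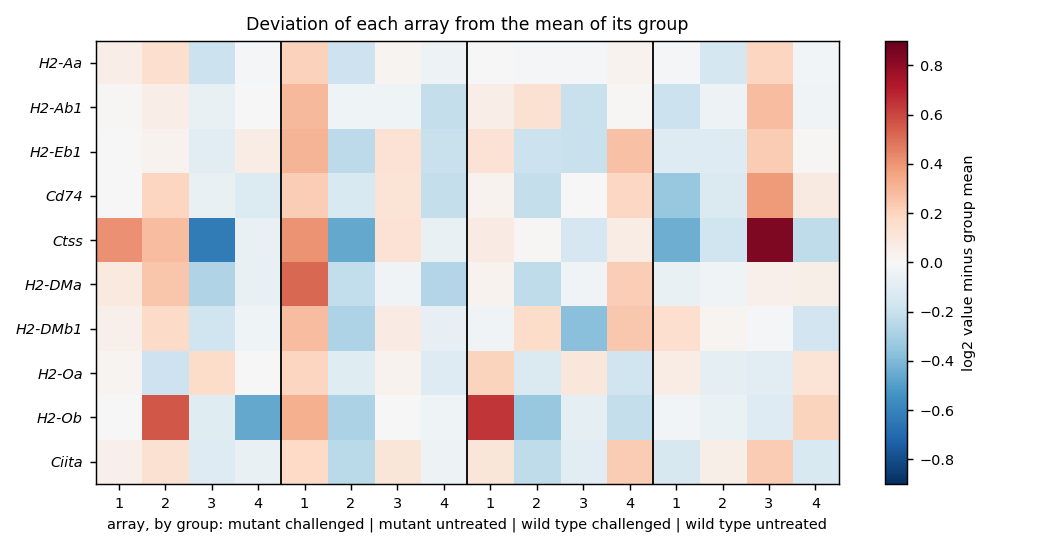
Deviation of each array's log2 value from the mean of its group, for the 10 members (rows) on the 16 arrays (columns, replicates 1 to 4 in each group). Red cells are above and blue cells below the group mean; untreated mutant replicate 1 and untreated wild-type replicate 3 are above it for H2-Aa, H2-Ab1, H2-Eb1, Cd74, Ctss and Ciita, and H2-Oa does not follow that pattern.

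Within groups, most members deviated in the same mice. Over the 16 arrays, after each group's mean was taken off, Pearson's r with the mean of H2-Aa, H2-Ab1, H2-Eb1 and Cd74 was 0.83 for Ctss (Spearman's rho 0.81), 0.81 for Ciita (0.78) and 0.79 for H2-DMa (0.81). It was 0.50 for H2-DMb1 (0.53), 0.37 for H2-Ob (0.28) and 0.04 for H2-Oa (0.01). The arrays share their normalisation, and the 2 arrays farthest from the median weigh most. Without them r was 0.70 for Ctss, 0.75 for Ciita, 0.81 for H2-DMa, 0.47 for H2-DMb1, 0.44 for H2-Ob and -0.09 for H2-Oa. The pair of H2-DM chains, H2-DMa and H2-DMb1, had an r of 0.57 with each other, and Ciita had its highest r among members with H2-Eb1, 0.84.

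The genes whose deviations were most like the mean of those 4 members were ranked among 11004 named genes that are not members. They were Akr1a1 (r = 0.93), Lpxn (0.92), Igf1 (0.91), Slc7a8 (0.90), Fcer1g (0.90), Ctsb (0.90), Fcgr3 (0.89), Scimp (0.89), H2-T23 (0.89) and Cd83 (0.89). Fcer1g and Fcgr3 encode parts of Fc receptors of myeloid cells, Scimp a membrane adaptor of antigen-presenting cells, Ctsb the lysosomal protease cathepsin B, and Cd83 a surface protein of activated dendritic cells and B cells. Spearman's rho for the 10 was 0.83 to 0.92. Without the 2 farthest arrays r was 0.79 to 0.88. Over all 11004 genes the median r was -0.04 and 0.727% were over 0.8.

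The other genes of the pathway were read from lists chosen with earlier results of these data known. Among 13 measured genes that control class II transcription, 3 rose and 2 fell after challenge in mutants, and 2 rose and 2 fell in wild-type mice. Of all features, 12.1% were higher and 11.7% lower in mutants, and 8.19% higher and 9.43% lower in wild-type mice. The median difference of the list was 0.01 in mutants and 0.06 in wild-type mice, against 0.01 and -0.01 over all features. Ifngr1, the ligand-binding chain of the interferon-γ receptor, averaged 862 ± 43.1 in challenged and 1219.8 ± 54.2 in untreated mutants. In wild-type mice it averaged 799 ± 135 after challenge and 1143 ± 24.3 without it (SD, n = 4 each). It fell by 0.48 in mutants (SE 0.10, adjusted p = 0.0027) and by 0.51 in wild-type mice (SE 0.10, adjusted p = 0.0024). Ifngr2, the signalling chain, averaged 1511 ± 277 in challenged and 792 ± 57.4 in untreated mutants (SD, n = 4 each), a rise of 0.88 (SE 0.19, adjusted p = 0.0044). Irf8, a transcription factor of myeloid and B cells, rose by 0.55 (SE 0.15, adjusted p = 0.0136) in mutants. Creb1, the CREB protein of the class II promoter complex, fell by 0.44 in mutants (adjusted p = 0.0174) and by 0.65 in wild-type mice (adjusted p = 0.0024). Irf1, which activates Ciita in the interferon-γ response, rose by 0.48 in mutants (adjusted p = 0.0306) and by 0.45 in wild-type mice (adjusted p = 0.0491), and Nfyb, a subunit of NF-Y, rose by 0.29 in wild-type mice (adjusted p = 0.0469). Without the 3 arrays with other tissue the counts were 2 higher and 1 lower in mutants, where Creb1 and Irf1 were lost (adjusted p = 0.0629 and 0.071), and 3 higher and 2 lower in wild-type mice, where Ifngr2 was gained at 0.64 (adjusted p = 0.0247).

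Among 11 genes of endosomal processing and class II turnover, 2 rose and 1 fell in mutants, and 1 rose and 1 fell in wild-type mice, beside the same shares of all features (12.1% higher and 11.7% lower, and 8.19% higher and 9.43% lower). The median differences were 0.12 and 0.03. Ifi30, a thiol reductase that unfolds antigens in endosomes, rose by 0.61 in mutants (SE 0.19, adjusted p = 0.0283) and by 0.73 in wild-type mice (SE 0.19, adjusted p = 0.0143). Cst3, cystatin C, which inhibits cathepsins including cathepsin S, averaged 13028 ± 446 in challenged and 15463 ± 1166 in untreated mutants, and 12404 ± 1036 in challenged and 16003 ± 312 in untreated wild-type mice (SD, n = 4 each). It fell by 0.24 (SE 0.08, adjusted p = 0.0394) and by 0.37 (SE 0.08, adjusted p = 0.0059). Ctsd, the lysosomal protease cathepsin D, rose by 0.59 in mutants (SE 0.21, adjusted p = 0.0497). With the 3 arrays left out the counts were 0 higher and 1 lower in mutants, where Ifi30, Ctsd and Cst3 were lost (adjusted p = 0.0611, 0.0614 and 0.0877), and 1 higher and 2 lower in wild-type mice. The gene gained in both genotypes was Sppl2a, the protease that clears the last membrane-bound piece of the invariant chain, at -0.40 in mutants (adjusted p = 0.0343) and -0.58 in wild-type mice (adjusted p = 0.0118), against -0.39 and -0.25 on all 16 arrays.

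Among 10 measured genes of costimulation and of CD4 partners, 3 rose in mutants, against 12.1% of all features, and 4 rose in wild-type mice, against 8.19%, and none fell. The median differences were 0.43 and 0.45. Cd40, the receptor through which T cells activate antigen-presenting cells, averaged 1017 ± 114 in challenged and 629 ± 122 in untreated mutants, and 1016 ± 64.9 in challenged and 634 ± 57.3 in untreated wild-type mice (SD, n = 4 each). It rose by 0.67 (SE 0.12, adjusted p = 0.0014) and by 0.65 (SE 0.12, adjusted p = 0.0021). Cd83, whose protein protects class II from degradation, rose by 0.50 in mutants (SE 0.14, adjusted p = 0.0148) and by 0.63 in wild-type mice (SE 0.14, adjusted p = 0.0057). Cd44, part of the receptor complex of the Mif cytokine with the Cd74 protein, rose by 0.64 in mutants (SE 0.16, adjusted p = 0.009), and Mif rose by 0.52 in wild-type mice (SE 0.12, adjusted p = 0.0082). Pdcd1lg2, a ligand of the inhibitory receptor PD-1, was at least 1.53-fold higher in challenged wild-type mice (adjusted p = 0.0081), since it was below the background limit on all 4 untreated wild-type arrays. The counts were also 3 and 4 with the 3 arrays left out, where Cd83 was lost (adjusted p = 0.0525) and Mif gained (adjusted p = 0.0189) in mutants.

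The class I pathway, which shares interferon control with class II, had 5 of 13 measured genes higher and 1 lower in mutants, and 4 higher and none lower in wild-type mice. Of all features, 12.1% were higher and 11.7% lower in mutants, and 8.19% higher and 9.43% lower in wild-type mice. The median differences of the list were 0.21 and 0.19. Tap2, a chain of the peptide transporter, averaged 2398 ± 433 in challenged and 1054 ± 137 in untreated mutants, and 2412 ± 512 in challenged and 1252 ± 229 in untreated wild-type mice (SD, n = 4 each). It rose by 1.15 (SE 0.17, adjusted p = 0.0005) and by 0.92 (SE 0.17, adjusted p = 0.0020). The immunoproteasome genes Psmb10 and Psmb9 rose by 0.64 and 0.75 in mutants (adjusted p = 0.0022 and 0.006) and by 0.70 and 0.74 in wild-type mice (adjusted p = 0.0016 and 0.0081), and Psmb8 by 0.52 in wild-type mice (adjusted p = 0.0355). The gene that fell in mutants was Calr, a chaperone of class I assembly, at -0.74 (adjusted p = 0.0371). H2-K1, a class I heavy chain with close copies in the genome, rose by 0.81 in mutants (SE 0.20, adjusted p = 0.0093). When the 3 arrays were left out the counts were 5 higher and none lower in mutants and 4 higher and none lower in wild-type mice, where Psmb8 was lost (adjusted p = 0.14) and Tap1 gained (adjusted p = 0.0243). The remaining class II loci on the array, H2-Eb2 and H2-DMb2, passed in neither genotype. No gene of these lists passed in either genotype comparison or in the interaction.

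**Figure D5:**
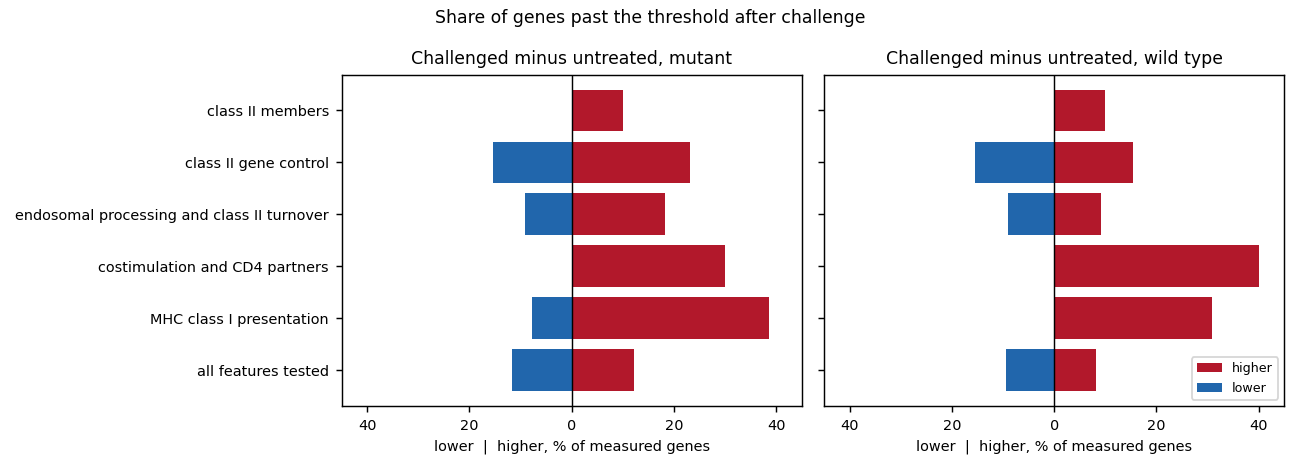
Share of measured genes past the threshold after challenge, higher to the right and lower to the left (percent), for the 10 class II members, 4 pathway lists of 10 to 13 genes and all 11962 features, in mutants (left panel) and wild-type mice (right panel). The class II members stand at 1 of 10 higher in both panels, near the 12.1% and 8.19% of all features, and the costimulation list at 3 and 4 of 10.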

How the data were processed

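The deposited values table holds linear intensities. The authors' background subtraction and normalisation are not described in the sources used here; from the table itself, 23.5% to 23.8% of the intensities of an array were below 0, and every array had the same upper quartile (220.67) and highest value (48649.2), as quantile normalisation gives. GenomeStudio 2011.1 is named, with no role, in the submitters' processing notes. A deposited table of 16 signal and 16 detection columns was not used, because its column names match no label. The labels give each array its own mouse.

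Intensities were corrected with normexp (fitted background mean of -24.9 to -24.8, offset 16) and taken to log2 without further normalisation, so a fold understates the change of a dim gene. Probes above a background limit of 16.8 (percentile 95 of noise with SD 10.2) on at least 4 of 16 arrays were kept, 15869 of 25697, and the brightest probe of each gene was used. The platform annotation named 23978 probes and left 1719 without a symbol. limma 3.58.1 in R 4.3.3 fitted 4 group means on all 16 arrays, with 12 residual and 4.75 prior degrees of freedom. No depth exists for arrays, and their number limits the precision. The fit was tested on simulated data.

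The members and lists were chosen with earlier results of these data known. Named are all members, up to 4 genes of smallest p past the threshold per pathway list and comparison, and the 10 genes most like the mean of H2-Aa, H2-Ab1, H2-Eb1 and Cd74. Score ranges over the 16 arrays were -0.93 to 0.62 for lymph node stroma and vessels, -0.23 to 0.62 for thymus and -1.23 to 1.76 for fat cell genes. The thymus score, over 3 genes, was 0.37 to 0.62 in challenged and -0.18 to 0.01 in untreated mutants. In wild-type lungs it was 0.16 to 0.47 after challenge and -0.23 to 0.10 without it. Of 5 lymph node genes, 2 fell in each genotype and none rose, against 11.7% and 9.43% of all features lower. Replicate numbers were not used as a block, since the labels only number the mice with them. Alternatives covered the background correction, offset, filter, probe choice, normalisation, arrays fitted, replicate block and arrays left out.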

Additional observations from a re-analysis of the deposited data

How the results depend on the processing

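The results were recomputed under 26 alternatives, 16 of which leave out 1 array. Ciita in wild-type mice held under all 26 (0.64 to 0.81, adjusted p 0.00069 to 0.0112). H2-DMb1 in mutants held under 25 (0.42 to 0.61, adjusted p 0.0061 to 0.0505) and was lost without untreated mutant replicate 2. The count of members past the threshold after challenge in mutants, 1, was 2 with an offset of 50, with a filter for all arrays of a group, with the mean of detected probes and with only the arrays compared, Ciita being the added gene each time. Leaving out 1 array gave 0 to 3 members there, with 0 without untreated mutant replicate 2 and 3 (Ctss added to H2-DMb1 and Ciita) without untreated mutant replicate 1, challenged mutant replicate 3 or untreated wild-type replicate 3. The count in wild-type mice, 1, was 2 when the 3 arrays carrying RNA of another tissue were dropped, and 1 to 2 when 1 array was left out, H2-DMb1 being added without challenged replicate 3 and Ctss without untreated replicate 3. The mean of both genotypes had 4 members, and 2 to 5 when 1 array was left out, with 2 without untreated mutant replicate 2 or challenged mutant replicate 1. H2-Aa in that mean kept the threshold under 7 of 25 alternatives, and was lost with plain log2, with no filter, with centred noise, and without the 3 arrays, and kept in 3 of 16 removals of 1 array. The genotype comparisons and the interaction had 0 members under every alternative run, while the genes past the threshold between challenged mutants and challenged wild-type mice numbered 2, and 86 without the 3 arrays. With the replicate number as a block the counts were 1 in mutants and 1 in wild-type mice, as without it, and 0 in the genotype comparisons and the interaction; the mean of both genotypes again had 4, with H2-Aa lost and H2-Oa gained. The labels do not say that the numbers mark pairs. Of 24 same-numbered pairs of arrays, 3 deviated together (r over 0.1), and 5 of 16 arrays correlated best with their own number. These deviations include the arrays with other tissue, so they cannot decide whether mice were paired. A normexp correction with the noise centred on 0, added after seeing the data, kept the counts of the separate comparisons and gave 3 for the mean of both genotypes. Of 1540 single-gene values, 58 changed sign, none past the threshold before or after, and 22 gained and 22 lost the threshold. Where an array's removal changed a count, the cause was not tested. If the deposited values were quantile-normalised, those of all members are set by rank.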
